A study of Mus musculus with 12 samples.

Results

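The vesicle trafficking genes of the mouse yolk sac were examined in *Prdm6* del/del embryos, on cDNA microarrays that each compared del/del with wild type RNA. Genes were taken by their symbol: Rab GTPases (Rab and a number, with or without a letter), Vps proteins, sorting nexins (Snx), Sec proteins, syntaxins (Stx), Vamp proteins, subunits of the COPI coat (Cop), Arf GTPases and subunits of the adaptor complexes AP-1 to AP-3. This gave 202 probes of 140 genes, among 12771 probes of 9030 genes with a symbol. A probe was tested if it had a value on at least 8 arrays, which 200 of these probes (138 genes) and 20516 of all 20794 probes had. The probes of *Rab39b* and *Snx8*, with 7 values each, were not tested.

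The del/del RNA came from yolk sacs of *Prdm6* -/- embryos at E10.5, in which exon 3 had been removed in the germ line by a ubiquitous CMV-Cre deleter, so that every tissue carried the deletion. The other channel of every array held 1 pool of RNA from 6 *Prdm6* +/+ yolk sacs, and littermates were used throughout the study. Each of 6 del/del yolk sacs was hybridized on a pair of arrays with the dyes exchanged, 12 arrays in all, but the labels do not say which 2 arrays share a yolk sac. The del/del RNA was labelled with Cy5 on 5 arrays and with Cy3 on 5 arrays, while for replicates 8 and 9 the labels give both channels 1 dye. *Prdm6* itself was not analysed here.

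Vesicles move proteins and lipids between the compartments of a cell. Arf GTPases and coats bud a vesicle from the donor membrane, Rab GTPases mark each compartment and recruit motors and tethers, and syntaxins and Vamp proteins, members of the SNARE family, fuse the vesicle with its target. In the yolk sac, the visceral endoderm is known for heavy endocytic uptake and for secretion of serum proteins.

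Each deposited value is a log2 ratio of del/del over wild type, so 0 is no difference and 1.3-fold corresponds to 0.38 in either direction. Scale and direction are not stated with the values. They were taken from the signed mean ratios that accompany the study's heat plot, which the deposited values give when read in this way. Between 20011 and 20501 of the 20794 probes had a value on an array, and 195 to 200 of the 200 tested vesicle trafficking probes did. Ratios carry no level, so neither the abundance of a gene nor the presence of the tissue's own marker genes could be read from them, and the precision is set by the number of arrays. The mean of each probe was tested against 0 with limma and a dye term. The means given are those of the fit, which differ from the plain average for some of the 14 probes without a value on every array. A probe was called at a Benjamini-Hochberg adjusted p under 0.05, over all 20516 probes, together with a change over 1.3-fold. Because pairs of arrays share a yolk sac and the wild type pool is 1 sample whose own spread is left out, these p-values are too small. They measure only the spread between arrays, which is partly technical.

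No vesicle trafficking probe was called. The count was 0 of 200 probes, higher or lower, whereas 1.07% of all 20516 probes were called (0.166% higher and 0.907% lower in del/del). At an adjusted p under 0.05 without the fold threshold, 1 probe passed, that of *Rab1b*, beside 1.31% of all probes. At an unadjusted p under 0.05 there were 22 probes of 20 genes, 15 higher and 7 lower in del/del, which is 11% of the 200, against 11% of all probes (4.64% of all probes were higher at that p). With consecutive arrays averaged as presumed dye-swap pairs, 0 of 198 vesicle trafficking probes were called by limma, 20 were at an unadjusted p under 0.05, and the smallest adjusted p was 0.186, while 113 of 20083 probes of all genes were called.

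The mean ratios lay close to 0. Their median was 0.02 on the log2 scale, with quartiles of -0.07 and 0.09, against a median of -0.00 and quartiles of -0.10 and 0.09 for all probes. Of the 200 probes 114 (57.0%) had a mean above 0, against 48.9% of all probes. A mean beyond 1.3-fold was found for 7 probes (3.5%), against 7.07% of all probes, and each of these 7 had an SD over 1 between arrays (1.05 to 4.95). For the 187 probes with an SD of at most 1, the means ranged from -0.28 to 0.34, so 0 of them lay beyond 1.3-fold.

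Most probes had narrow intervals. The 95% confidence interval of the mean lay wholly within 1.3-fold in either direction for 156 of the 200 probes (78.0%), against 61.4% of all probes, and for 157 of 198 (79.3%) with presumed pairs averaged. For 102 of the 138 genes this held for every tested probe. The other 44 probes had intervals that reached past 1.3-fold, so for them a change of that size was not bounded by these arrays. The intervals rest on arrays entered singly, as above.

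**Figure D1:**
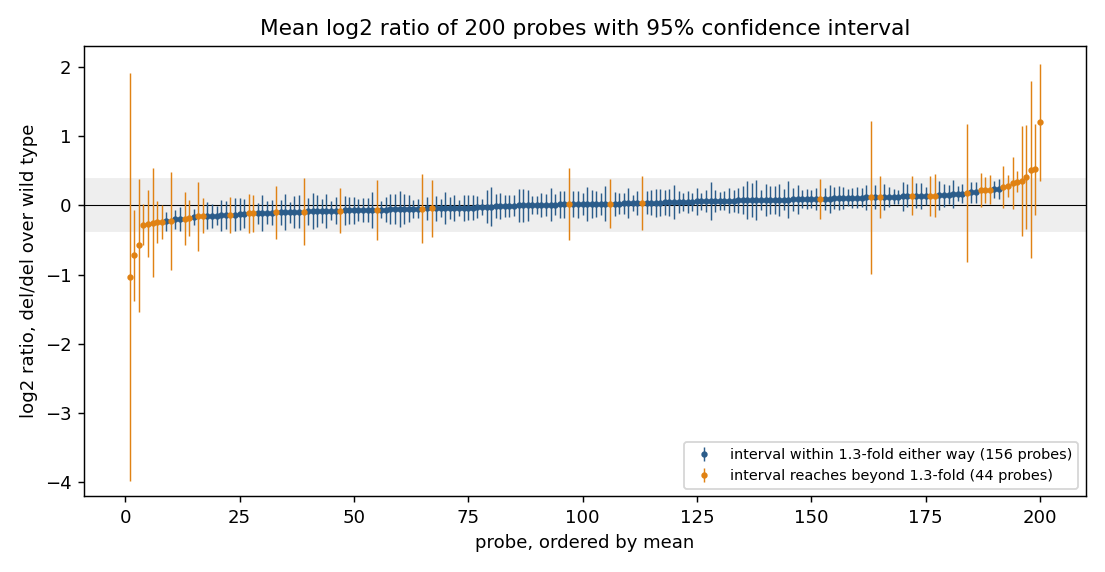
Mean log2 ratio of del/del over wild type for each of the 200 vesicle trafficking probes, in order of the mean, with the 95% confidence interval of the limma fit as a line. The grey band marks 1.3-fold in either direction: 156 intervals lie inside it and 44 reach beyond it.

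By family, the medians ranged from -0.05 for syntaxins (17 probes) to 0.07 for adaptor complexes (27 probes), as the plot of the 9 families shows, against -0.00 for all probes. At an unadjusted p under 0.05, which 11% of all probes reached, the Rab GTPases had 8 of 53 probes, the syntaxins 3 of 17, the adaptor complexes 3 of 27, the Vps proteins 2 of 33, the sorting nexins 2 of 26 and the Sec proteins 2 of 25. The Vamp proteins had 1 of 5, the COPI coat 1 of 10 and the Arf GTPases 0 of 4. A mean above 0 was found for 20 of 27 adaptor probes and 7 of 17 syntaxin probes, against 48.9% of all probes.

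**Figure D2:**
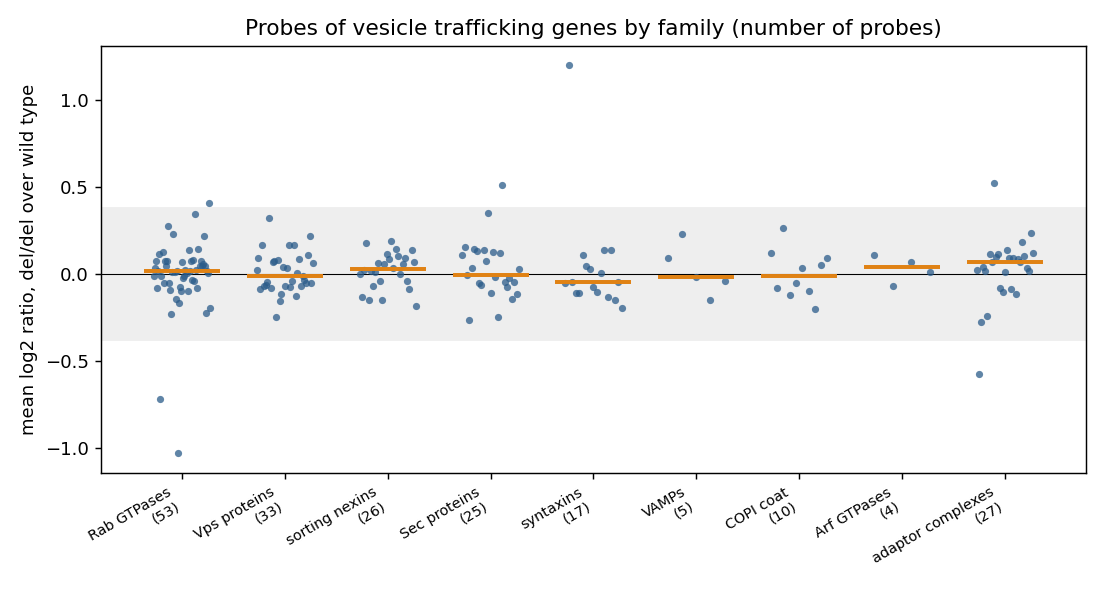
Mean log2 ratio of del/del over wild type of each vesicle trafficking probe (points), by family with the number of probes in brackets, and the family median (orange bars). Medians lie between -0.05 and 0.07, and 7 probes lie outside the grey band of 1.3-fold.

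*Rab1b*, a GTPase that acts between the endoplasmic reticulum and the Golgi, came closest to a call. Its probe (447) ranged over the arrays from -0.13 to 0.69 with a median of 0.32. It was above 0 on 11 of 12 arrays, the exception being replicate 11, and the mean was 0.34 ± 0.22 (SD, n = 12 arrays), or 1.27-fold higher in del/del (limma adjusted p = 0.0337). The fold lay under the threshold of 1.3. Without replicate 11 the mean was 0.38 with an adjusted p of 0.0126 and the probe was called, whereas leaving out any 1 of the other 11 arrays gave adjusted p-values of 0.0551 to 0.0985. With presumed pairs averaged, the adjusted p was 0.186. The other GTPases of this step had smaller means: *Rab2b* had a mean of -0.17 ± 0.12 and was below 0 on 11 of 12 arrays (adjusted p = 0.191), *Rab2a* had 0.08, and the 2 probes of *Rab6a*, a Golgi GTPase, had -0.09 and -0.03.

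Among the GTPases of recycling and delivery to the cell surface, *Rab8a* had the smallest p. Its probe ranged from -0.13 to 0.49 with a median of 0.29, was above 0 on 9 of 12 arrays and had a mean of 0.23 ± 0.22 (SD, n = 12), with an adjusted p of 0.0827. *Rab11a*, the GTPase of the recycling endosome, had -0.01 ± 0.23 and was above 0 on 7 of 12 arrays. The 2 probes of *Rab4a*, which acts in fast recycling, had 0.03 ± 0.69 and 0.07 ± 0.68. Those of *Rab35* had 0.01 ± 0.44 and 0.01 ± 0.45. The second *Rab4a* probe had a mean of 0.70 where del/del carried Cy5 and -0.48 where it carried Cy3. For the second *Rab35* probe these means were 0.38 and -0.35. On the early endosome, *Rab5a*, *Rab5c* and 1 probe of *Rab5b* (1647) had means of 0.04, 0.02 and 0.02, with SDs of 0.39, 0.40 and 0.58. The 3 probes of *Rab22a*, another early endosome GTPase, had 0.22 ± 0.41 (limma adjusted p = 0.358), 0.14 ± 0.57 and 0.05 ± 0.24. The first of them had a mean of -0.11 where del/del carried Cy5 and 0.52 where it carried Cy3.

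*Rab7*, the GTPase of late endosomes and lysosomes, had 4 probes, and they did not give 1 value. Probe 6588 ranged from -0.08 to 0.56 with a median of 0.28, was above 0 on 11 of 12 arrays and had a mean of 0.28 ± 0.22 (adjusted p = 0.108). Probe 17844 ranged from -0.76 to 0.03 with a median of -0.19, was below 0 on 11 of 12 arrays and had a mean of -0.23 ± 0.22 (adjusted p = 0.140). Probe 4912 was above 0 on 10 of 12 arrays, at 0.12 ± 0.16 (adjusted p = 0.392). Probe 18965 had 0.08 ± 0.55 and followed the dye: its mean was 0.51 on the 5 Cy5-labelled del/del arrays and -0.35 on the 5 Cy3-labelled ones. The first probe exceeded the second on 12 of 12 arrays, by 0.51 ± 0.31 (range 0.06 to 0.98). This pair was chosen for its gap, so the difference is a description without a test. The probes' sequences were not used here, so which transcripts each one captures was not tested.

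**Figure D3:**
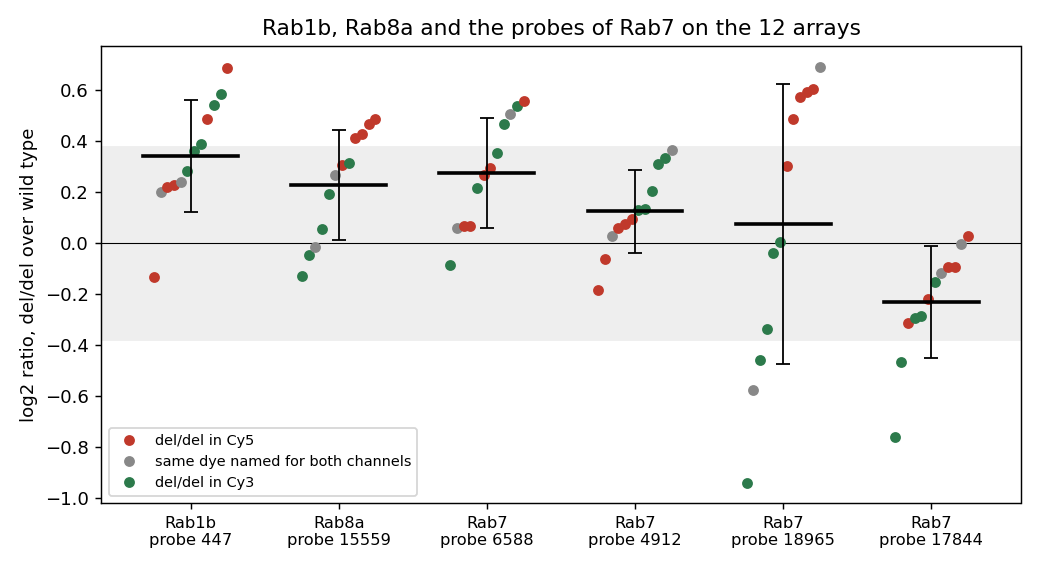
Log2 ratio (del/del over wild type) for each of 12 arrays (points, coloured by the dye of del/del) for the probes of *Rab1b*, *Rab8a* and *Rab7*, with the mean (thick line), the SD (error bar) and the band of 1.3-fold (grey). Probe 6588 of *Rab7* lies above 0 on 11 of 12 arrays and probe 17844 below 0 on 11 of 12, and the points of probe 18965 separate by dye.

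The remaining Rab probes with a wide mean each had an SD over 1 between arrays, as did *Rab24*, whose mean was -0.22 ± 1.12 (n = 11). *Rab15* had -0.72 ± 1.05 (n = 11), ranging from -3.38 to 0.30 with a median of -0.305 (adjusted p = 0.395). *Rab3c*, a GTPase of regulated secretion, had 0.41 ± 1.17 (n = 10). The lowest mean of all, -1.03 for probe 15948 of *Rab5b*, came from a single value of -16.7 on replicate 8. Without that value the mean was 0.39, and the median with it was 0.245.

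The Vps proteins form the complexes that sort cargo at endosomes, and 0 of 33 probes were called, against 1.07% of all probes. Retromer, which returns cargo from endosomes to the Golgi and the surface, was measured by its subunits *Vps26a*, *Vps26b* and *Vps29*. The 2 probes of *Vps26b* had means of 0.32 and 0.22, each above 0 on 9 of 12 arrays, with SDs of 0.67 and 0.50 and adjusted p-values of 0.534 and 0.507. The HOPS and CORVET tethers, which prepare endosomes for fusion with lysosomes, had a median of -0.07 over 5 probes, and *Vps41* of HOPS had -0.09 ± 0.38. In the ESCRT machinery, which sorts ubiquitinated cargo into multivesicular bodies, *Vps25* had 0.17 ± 0.23 (above 0 on 9 of 12 arrays, adjusted p = 0.196) and 1 of the 2 probes of *Vps37a* had 0.17 ± 0.20 (adjusted p = 0.336). The 13 ESCRT probes had a median of -0.04. *Vps72*, which the rule also takes, encodes a subunit of chromatin remodelling complexes and had -0.07 ± 0.36.

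Sorting nexins bind phosphoinositides on endosomes, and their means were the narrowest of the larger families, from -0.18 to 0.19 over 26 probes. *Snx10*, known for its part in osteoclasts and lysosomal acidification, had 0.19 ± 0.27 and 0.13 ± 0.30 on its 2 probes (adjusted p = 0.328 and 0.560). *Snx30* had -0.15 ± 0.22 on 1 probe (adjusted p = 0.383) and 0.00 and 0.03 on the other 2. *Snx3*, which sorts cargo with retromer, had 0.06 ± 0.22, and *Snx9*, of clathrin-mediated endocytosis, had 0.11 ± 0.18.

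Most of the Sec proteins act on the way into and out of the endoplasmic reticulum. The rule also takes 3 probes of Sec14-like proteins, which had a median of 0.13. In the translocon, through which secreted proteins enter it, *Sec61a1* had 0.15 ± 0.18 (above 0 on 9 of 12 arrays, adjusted p = 0.388). The 2 probes of *Sec63* had 0.13 ± 0.15 (adjusted p = 0.312) and -0.05 ± 0.56. The COPII coat, which buds vesicles from the endoplasmic reticulum, had a median of -0.02 over 9 probes. Its inner coat subunit *Sec23b* had a fitted mean of -0.25 and a plain average of -0.37 (SD 1.29, n = 10). Its values ranged from -3.35 to 0.69 with a median of 0.12, so the average lay below the median. *Sec16b* had the opposite form, 0.35 ± 1.44 with a median of -0.03 and a highest value of 4.86. *Sec22c*, a SNARE-like protein, had a fitted mean of 0.51 on a probe with 8 values, whose plain average was 0.27 (SD 1.67), and 0.07 on another probe (SD 0.54).

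For the coats of the Golgi, 0 of 10 COPI probes and 0 of 4 Arf probes were called, against 1.07% of all probes. *Copz2*, a zeta subunit of COPI, had -0.20 ± 0.42 (adjusted p = 0.184), with 6 arrays above and 6 below 0. Its mean was 0.18 where del/del carried Cy5 and -0.62 where it carried Cy3, so the sign went with the dye. *Copb2* had 0.26 ± 0.50 and 0.03 ± 0.39 on its 2 probes. *Arf1*, the GTPase that recruits COPI, had -0.07 ± 0.66. *Arf3* and *Arf4*, other Golgi Arf proteins, had 0.11 ± 0.27 and 0.07 ± 0.45.

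AP-2, the clathrin adaptor of the plasma membrane, had 7 of its 8 probes above 0, against 48.9% of all probes, with a median of 0.05. Its mu subunit *Ap2m1* ranged from -0.11 to 0.55 with a median of 0.16, and was above 0 on 10 of 12 arrays with a mean of 0.18 ± 0.20 (adjusted p = 0.301). For the alpha subunit *Ap2a2* the 3 probes had 0.24 ± 0.22 (above 0 on 10 of 12 arrays, adjusted p = 0.131), 0.02 ± 0.26 and -0.09 ± 0.80. The gene thus had means on both sides of 0. AP-1, of the Golgi and endosomes, had 6 of 8 probes above 0, with a median of 0.09. Its lowest probe was that of *Ap1m1*, at -0.28 ± 0.60 (adjusted p = 0.487). AP-3, of the path to lysosomes, had 7 of 11 probes above 0, with a median of 0.04. Its subunit *Ap3m2* had -0.24 ± 0.38 (adjusted p = 0.445) and the neuronal subunit *Ap3b2* had -0.58 ± 1.55 (n = 11). For *Ap3s2* the 3 probes had 0.52, -0.10 and -0.12. The highest *Ap3s2* mean included a value of 3.87 on replicate 9.

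Among the SNAREs, *Stx4a*, a syntaxin of the plasma membrane, had the highest mean of all the genes. Its probe ranged from -0.25 to 4.30 with a median of 1.01, was above 0 on 8 of 10 arrays and had a mean of 1.20 ± 1.27 (SD, n = 10), with an adjusted p of 0.234. The arrays thus spread over more than the size of the mean, and the highest value, on replicate 2, stood far above the rest. *Stx8*, of late endosome fusion, had -0.19 ± 0.26 and -0.05 ± 0.28 on its 2 probes, and *Stx18*, of the endoplasmic reticulum, had 0.14 ± 0.20. The 5 Vamp probes ranged from -0.15 for *Vamp3* to 0.23 ± 0.35 for *Vamp5* (adjusted p = 0.413), with *Vamp8*, of the endosomal and secretory pathways, at 0.09 ± 0.17.

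Several genes were measured by more than 1 probe, which gave a check within an array. Of the 138 genes 46 had 2 to 4 tested probes, and the means of these probes had 1 sign in 22 genes and both signs in 24. The gap between the lowest and the highest probe mean of a gene had a median of 0.14 and exceeded 0.38 in 4 genes, *Rab5b* (1.06), *Ap3s2* (0.63), *Rab7* (0.51) and *Sec22c* (0.44). In all but *Rab7* a probe with an SD over 1 set the gap. With the probes of a gene averaged before the limma fit, 0 of 138 genes were called. *Rab1b*, with its single probe, remained the only 1 with an adjusted p under 0.05 (0.0306), and 15 genes had an unadjusted p under 0.05.

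More of these probes passed an adjusted p of 0.05 for the dye than for the genotype. In the same limma fit the dye term had an adjusted p under 0.05 for 36 of the 200 probes (18.0%), 26 with a higher ratio where del/del carried Cy5 and 10 where it carried Cy3, against 12.2% of all probes. On 1 of its 2 probes *Stx5a*, a Golgi syntaxin, had a mean of 0.72 on the Cy5 arrays and -0.61 on the Cy3 arrays. *Snx19* had 0.75 and -0.45 in the same order. The count was not stable. It was 67 (33.5%, against 24.1% of all probes) with replicates 8 and 9 given the dyes that the sign of their extreme values carries, and 8, 8, 12, 9, 18 and 5 without replicates 5, 6, 7, 10, 11 and 12, taken in that order. Without replicates 5, 6 and 10 the shares were 4%, 4% and 4.5%, close to 3.9%, 3.5% and 4.1% of all probes. Without replicate 12 the share, 2.5%, was also close to that of all probes. Without replicates 7 and 11 the shares were 6% and 9%, against 5.4% and 5.8%. A wider gap stayed when replicate 1, 2, 3, 4, 8 or 9 was left out, such as 12.5% against 7.9% without replicate 2. The 186 probes with a value on every array had both orientations in equal number, 5 arrays each.

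**Figure D4:**
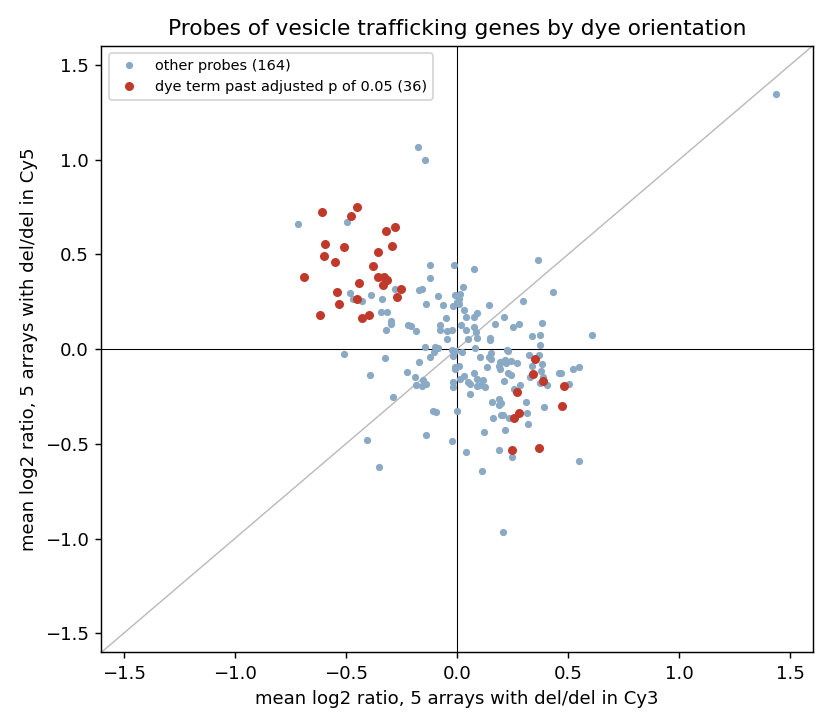
Mean log2 ratio (del/del over wild type) from the 5 arrays with del/del in Cy5 (vertical axis) against the 5 arrays with del/del in Cy3 (horizontal axis), 1 point for each of the 200 vesicle trafficking probes. The grey line marks equal means, and the 36 probes whose dye term had an adjusted p under 0.05 (red) lie away from it, 26 above and 10 below.

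On single arrays the median of the vesicle trafficking probes lay between -0.02 and 0.08, and it exceeded the median of all probes (-0.06 to 0.05) on 9 of 12 arrays. This count was not free of the dye. The vesicle trafficking median minus that of all probes was 0.042 to 0.084 on replicates 1, 3, 5, 7 and 11, labelled Cy5 for del/del. On replicates 2, 4, 6, 10 and 12, labelled Cy3, it was -0.046 to 0.05. For replicates 8 and 9, whose labels give 1 dye, it was -0.003 and 0.04. The 12 arrays also showed a large difference in red cell genes. The tested globin probes were those of *Hba-a1* and *Hba-x*, and no beta-like globin on the list had a tested probe. Their median was below 0 on 12 of 12 arrays, between -2.35 and -0.50. Of these 7 globin probes 6 were called lower in del/del, as were 12 of 26 probes of other erythroid genes (median -0.47). In whole tissue, fewer cells of a type and less RNA per cell cannot be told apart. Over all probes, 1.07% were called. Of 22 probes for genes of the visceral endoderm 0 were called (median 0.03), and of 17 for endothelium 0 (median -0.07). Of 12 for smooth muscle and pericytes 0 were called (median -0.03). At an unadjusted p under 0.05 in limma, which 11% of all probes reached, these lists had 2, 4 and 2 probes, in that order. Lower calls came from 3 of 14 mesenchyme and mesothelium probes, 2 of 10 macrophage probes and 1 of 4 megakaryocyte and platelet probes. Of 11 probes for the embryo proper 3 were called higher, those of *Tnnt2*, *Myl7* and *Myl4*. The median of the 11 was 0.08 and the lowest mean -0.13. What part the lower red cell signal had in the ratios of the vesicle trafficking genes was not tested.

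**Figure D5:**
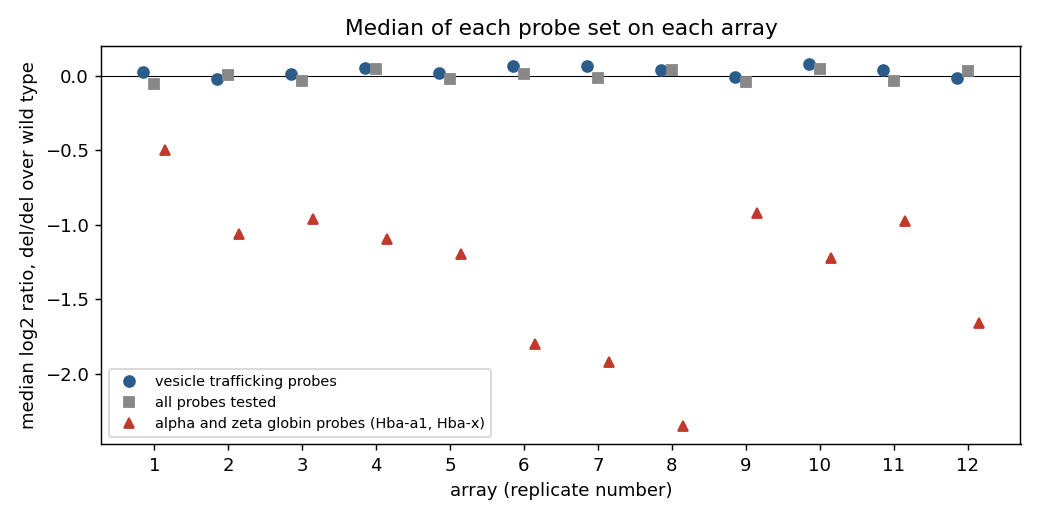
Median log2 ratio (del/del over wild type) for each of the 12 arrays for the vesicle trafficking probes (circles), all tested probes (squares) and the globin probes of *Hba-a1* and *Hba-x* (triangles). The circles stay between -0.02 and 0.08, whereas the triangles lie between -2.35 and -0.50.

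Trafficking genes that the symbol rule leaves out gave the same count. Of 308 probes of 190 such genes 0 were called by limma, against 1.07% of all probes. At an unadjusted p under 0.05 there were 38 (12.3%), against 11% of all probes. The median of the 308 probes was 0.00. They covered tethering and fusion factors (54 probes), regulators and effectors of Rab and Arf (87), clathrin and endocytic adaptors (62), ESCRT and endosome genes (51), and coat and cargo genes between endoplasmic reticulum and Golgi (54), with medians between -0.01 and 0.01. A pair of their probes had an adjusted p under 0.05, as did 1.31% of all probes. Both had a fold under 1.3 and are named because of their values. *Rab3ip*, which encodes the exchange factor Rabin8 that activates Rab8, ranged from 0.12 to 0.52 and was above 0 on 12 of 12 arrays, with a mean of 0.26 ± 0.13 (SD, n = 12, adjusted p = 0.0313). Its other probe had 0.21 ± 0.44 and was above 0 on 9 of 12 arrays (adjusted p = 0.552). *Bin1*, an amphiphysin that curves membranes, had a lowest value of 0.00, a median of 0.28 and a highest value of 0.999, was above 0 on 12 of 12 arrays and had a mean of 0.38 ± 0.30, just under the fold threshold (adjusted p = 0.0362). Its other probe had -0.05 ± 0.54 (adjusted p = 0.925).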

How the data were processed

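The authors deposited 1 table with a normalized log2 ratio per probe and array for 12 cDNA microarrays. The normalization and the image analysis are not given in the sources used here, and spot intensities were not used. The study's methods give RNeasy Mini kits and amplified RNA, and the labels of the samples name RNeasy Midi kits with indirect labelling of total RNA. Gene symbols came from the platform annotation, checked by gene ID against an annotation of GRCm38.p6 (0 symbols changed); 12771 probes had 1 symbol and 8023 none.

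The mean log2 ratio was tested against 0 in limma 3.58.1 (lmFit, eBayes; R 4.3.3), with a dye term of +1 for del/del in Cy5, -1 for Cy3 and 0 for replicates 8 and 9, over the 20516 probes with at least 8 values. The thresholds, an adjusted p under 0.05 and 1.3-fold, follow the study's methods. No dye was used to turn a ratio, since the globin probes have 1 sign on all arrays as deposited. Values beyond 8 in size were kept; 2 of them fell on vesicle trafficking probes. The fit was tested on simulated data with independent noise on each array. That simulation does not cover arrays that share a yolk sac or the wild type pool.

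Members and gene lists were chosen with earlier results of these data known. Named were all called probes, the 3 with the smallest p in each family, the 5 highest and the 5 lowest, the 3 genes with the widest gap between probes, and 15 genes chosen by role, of which 9 had a probe. Other members stand beside them as further probes, members of a group or complex, or examples, such as *Stx5a* and *Snx19* for the dye. The wild type pool is 1 control sample. Arrays were entered singly, with presumed pairs (both arrays, at least 4 pairs) as an alternative. Further alternatives were arrays centred or also scaled, a fit without the dye, dyes assigned to replicates 8 and 9, the 10 arrays with unambiguous dyes, extreme values as missing, other minimums of values, the robust and trend options, other fold thresholds, leaving out each array, and averaging the probes of a gene.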

Additional observations from a re-analysis of the deposited data

Results flagged for a closer look

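Of the 48 probes that the naming rule took, 6 had a dye term with an adjusted p under 0.05, against 12.2% of all probes. For these 6 the ratio differed between the dye orientations of the arrays. The effect of the dye, in the limma fit, is the change in the log2 ratio of del/del over wild type per unit of the dye code, positive where the ratio was higher with del/del in Cy5. It was 0.40 for *Copz2* (adjusted p = 0.0171), with means of 0.18 on the Cy5 arrays and -0.62 on the Cy3 arrays. It was 0.54 for *Arf1* (adjusted p = 0.0249; 0.49 on Cy5 and -0.60 on Cy3 arrays), 0.43 for probe 18965 of *Rab7* (adjusted p = 0.0364; 0.51 and -0.35) and 0.38 for *Vamp3* (adjusted p = 0.0217; 0.24 and -0.53). The effect ran the other way for *Arf4*, at -0.39 (adjusted p = 0.0243; -0.30 on Cy5 and 0.47 on Cy3 arrays), and for *Vps25*, at -0.20 (adjusted p = 0.0393; -0.05 and 0.35).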

How the results depend on the processing

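The count of called vesicle trafficking probes stayed at 0 under each alternative except 2. Without a fold threshold, and without replicate 11, it was 1, *Rab1b*, which is higher in del/del, so leaving out 1 array gave 0 to 1 called and 0 to 1 higher. The number of called probes over all genes was 113 with presumed pairs, 132 at 1.5-fold and 165 to 214 with 1 array left out. The dye term had 67 vesicle trafficking probes with dyes given to replicates 8 and 9, and 5 to 45 with 1 array left out. The share of all probes moved with this count. At the count of 45, without replicate 8, it was 14.7%, against 22.5% of the vesicle trafficking probes. Of the 48 named probes 40 kept their sign throughout, and 8 did not. Probe 15948 of *Rab5b* had 0.39 with values beyond 8 as missing and 0.42 on the 10 arrays with unambiguous dyes, and *Rab11a* had 0.0432 on those 10 arrays. With 1 array left out, the means ranged from -1.27 to 0.39 for *Rab5b* 15948, -0.0795 to 0.127 for *Rab5b* 1647, -0.0478 to 0.0246 for *Rab11a*, -0.0235 to 0.0596 for *Rab5c*, -0.0451 to 0.104 for *Rab5a*, -0.0499 to 0.488 for *Sec16b*, -0.11 to 1.21 for *Sec22c* 12778 and -0.137 to 0.0103 for *Arf1*; the cause was not tested. The median of the vesicle trafficking probes stayed above 0, between 0.00348 and 0.0267 with 1 array left out. The labels do not tie arrays to yolk sacs, so no fit with the yolk sac as a block was made. Signal over background is unknown, and 12 arrays limit the precision.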
